A study of Mus musculus with 6 samples.

Results

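Transient receptor potential (TRP) and Piezo genes encode the cation channels with which sensory nerve endings turn heat, cold, chemical irritants and touch into electrical signals. Of the 38926 gene symbols in the deposited tables, 10 were taken by name: Trpv1, Trpv2, Trpv4, Trpa1, Trpm2, Trpm3, Trpm4, Trpm8, Piezo1 and Piezo2. All 10 were found, and all 10 had enough reads to be tested. They were measured in whole dorsal root ganglia, the clusters of sensory neuron cell bodies beside the spinal cord, from lumbar levels 3, 4 and 5 on the side of the treated paw. The mice were wild type C57BL/6 females of 8 to 10 weeks. In 3 samples the animals had received vincristine, given as a cumulative 40 µg by intraplantar injection, and in 3 samples vehicle, of a makeup not given in the sources used here. Tubulin is the target of vincristine, which serves in cancer chemotherapy, and painful peripheral neuropathy is a known side effect. Each sample pooled ganglia of 4 mice and held neurons together with glia, vessels, connective tissue and blood cells.

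A sensory neuron is specialised by the channels it carries. TRPV1 opens to heat and capsaicin, TRPA1 to electrophilic irritants such as mustard oil, TRPM8 to cold and menthol, and TRPM3 to heat and the steroid pregnenolone sulfate, while PIEZO2 is the main channel of gentle touch and of proprioception. The remaining genes are used widely outside neurons: Piezo1 in endothelium and red blood cells, Trpm2 in myeloid cells, Trpv2 in macrophages and Trpv4 in several barrier tissues. In whole ganglia the level of a transcript is measured relative to all RNA counted in the sample. A lower level can come from fewer cells of a type or from less RNA per cell, among other routes, and the counts cannot tell these apart.

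The libraries held 12374331 to 26346304 reads in genes, with the lowest total in vincristine replicate 1, and the 10 channels had between 77 and 10797 reads each in a library. Atf3, a transcription factor switched on in injured sensory neurons, was at 129, 196 and 289 CPM (counts scaled to equal library totals, with TMM factors) in the vincristine libraries, against 7.95, 7.56 and 6.05 CPM in the vehicle libraries, which is 4.83 ± 0.33 (SE) as a log2 fold change and passed (edgeR adjusted p = 0.00732). All 18 sensory neuron identity genes listed, among them Avil, Prdm12, Scn10a and Mrgprd, had reads in every library. Vincristine replicate 1 stood apart from the other 5 libraries. Its 15 pan-neuronal marker genes summed to 4347 CPM, against 8803 and 10664 CPM in vincristine replicates 2 and 3 and 8456 to 10958 CPM in vehicle libraries. Its 13 neutrophil markers summed to 7778 CPM, against 2554 and 2928 CPM in the other vincristine libraries and 816 to 1425 CPM in vehicle libraries. Its 6 spinal cord glia markers summed to 421 CPM, against 194 and 148 CPM in the other vincristine libraries and 155 to 218 CPM in vehicle libraries. The share of its alignments assigned to no counted feature was 24.8%, against 14.8% to 17.0% in the other 5 libraries. The fold changes of the channels below are given with and without it where they moved by over 1.5 times or changed sign.

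None of the 10 channel genes passed the test between vincristine and vehicle ganglia. By edgeR's quasi-likelihood test with Benjamini-Hochberg adjustment over 16706 genes, 0 of 10 members had an adjusted p under 0.05, and the smallest adjusted p was 0.266, for Trpm2. Over all genes tested 0.359% passed. DESeq2 and limma-voom also called 0 members, where they called 3.41% and 0.251% of all genes. So did edgeR without vincristine replicate 1 (2.05% of all genes) and with a replicate block (1.56%), limma-voom with sample quality weights (2.85%) and DESeq2 without vincristine replicate 1 (3.78%). At an unadjusted p under 0.05 edgeR had 2 members higher (Trpm2 and Piezo1) and 0 lower, against 8.1% of all genes higher and 3.27% lower. DESeq2 and limma-voom each had 2 members under that p, against 12.6% and 11% of all genes. The log2 fold change was negative in 7 members and positive in 3, with a median of -0.10 beside -0.0033 for all genes tested; scaling to neuronal markers instead made 4 of the 7 negative values positive, but moved the median of all genes to 0.37, above all 4. The groups did not overlap in 2 of 10 members, Trpm2 and Trpa1, and in 21% of all genes. The standard errors of the members ran from 0.10 to 0.43 on the log2 scale.

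**Figure D1:**
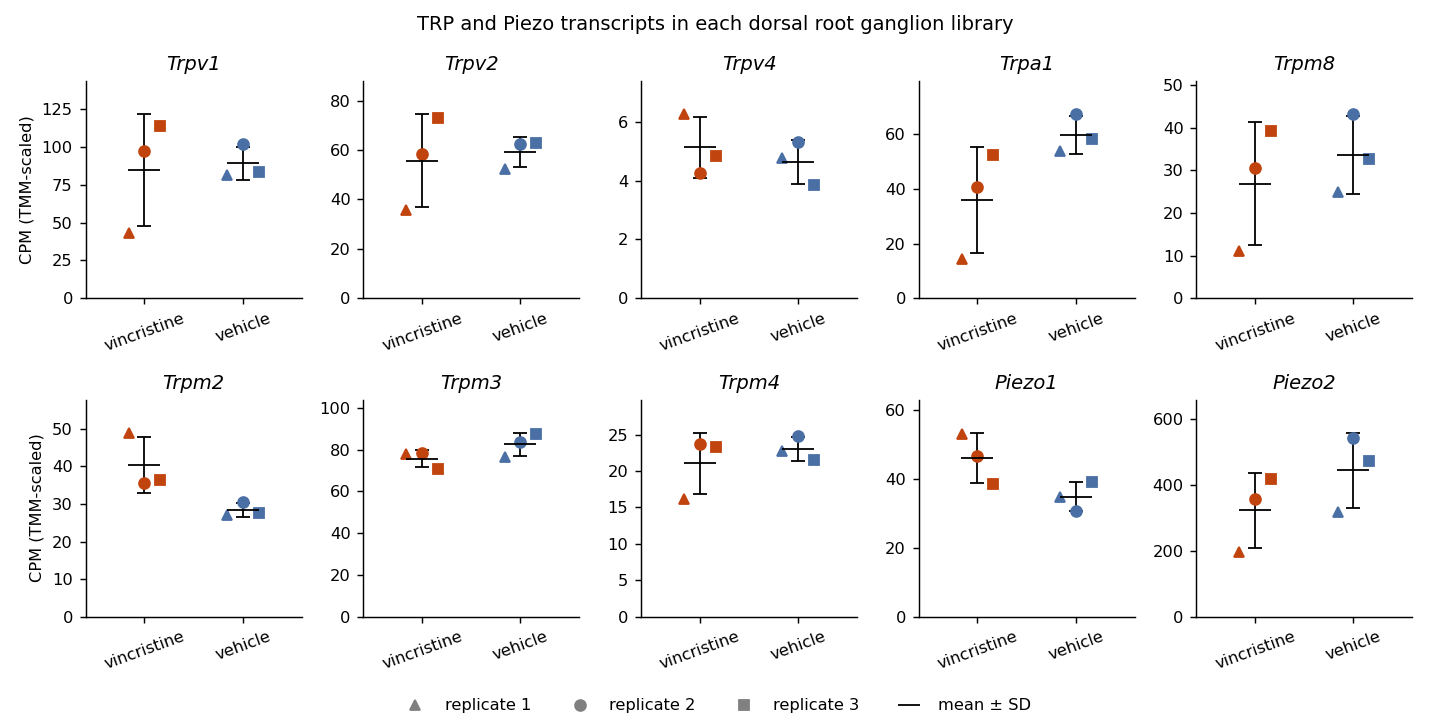
TMM-scaled CPM of each channel gene (vertical axes start at 0 and differ between genes) in 3 vincristine libraries (left, orange) and 3 vehicle libraries (right, blue), with replicates as triangle, circle and square and the mean ± SD in black. Vincristine replicate 1, the orange triangle, was the lowest of all 6 libraries for 6 genes and the highest for 3, and the groups did not overlap for Trpa1 and Trpm2.

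The irritant and heat receptors Trpa1 and Trpv1 mark nociceptors, the neurons of pain. Trpa1 had 14.5, 40.6 and 52.3 CPM in vincristine replicates 1, 2 and 3, against 53.7, 67.3 and 58.2 CPM in vehicle replicates 1, 2 and 3. Each vincristine library lay below each vehicle library, although vincristine replicate 3 came close to the lowest vehicle one. The groups likewise failed to overlap, with vincristine lower, in 9.51% of all genes tested. Trpa1 averaged 35.8 ± 19.3 CPM in vincristine and 59.8 ± 6.93 CPM in vehicle (SD, n = 3 each), 0.599 times the vehicle mean. Its log2 fold change of -0.73 ± 0.40 (SE) did not pass (edgeR adjusted p = 0.549). Without vincristine replicate 1 it was -0.36 ± 0.14 (edgeR adjusted p = 0.322), with the same sign and a smaller size. The gene spans chromosome 1 from 14872648 to 14918862 on the minus strand of GRCm38, with 27 merged exons and no overlapping gene in GENCODE M21.

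Trpv1 had 42.8, 97.2 and 114 CPM in vincristine replicates 1, 2 and 3, against 81.7, 102 and 83.6 CPM in vehicle replicates 1, 2 and 3. Vincristine replicate 1 was lowest of all and vincristine replicate 3 highest of all, so the vehicle values lay inside the vincristine range. The log2 fold change was -0.072 ± 0.33 with all libraries and 0.24 ± 0.12 without vincristine replicate 1 (edgeR adjusted p = 0.955 and 0.478). Leaving out vehicle replicate 2 also turned the sign, to 0.048. Trpv1 lies on chromosome 11 from 73234292 to 73261242, on the plus strand, in 16 merged exons.

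Trpv2, the closest relative of Trpv1 in the list, had 35.5, 58.5 and 73.0 CPM in vincristine libraries, against 52.2, 62.4 and 62.8 CPM in vehicle libraries. It showed the same spread as Trpv1, with the lowest and the highest value both in vincristine. Its log2 fold change was -0.082 ± 0.25 with all libraries, and 0.15 ± 0.13 without vincristine replicate 1 (edgeR adjusted p = 0.926 and 0.689).

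The ratio of Trpa1 to Trpv1 reads within a library does not depend on how libraries are scaled. It was 0.338, 0.418 and 0.460 in vincristine replicates 1, 2 and 3, against 0.657, 0.661 and 0.696 in vehicle replicates 1, 2 and 3. Every vincristine library lay well below every vehicle library, including vincristine replicates 2 and 3, whose pan-neuronal marker sums lay within the vehicle range. The sensory neuron identity genes of these replicates summed to 4041 and 4721 CPM. In vehicle replicates 1, 2 and 3 those genes summed to 4236, 5730 and 5488 CPM, so vincristine replicate 2 was below each of them. The mean log2 ratio was -1.31 ± 0.23 in vincristine and -0.58 ± 0.046 in vehicle (SD, n = 3 each), a difference of -0.74. An exact two-sided permutation test gave p = 0.1, the smallest that 3 against 3 allows, and 0.3 after Benjamini-Hochberg adjustment over the 3 ratios examined. Leaving out each library in turn gave differences from -0.84 to -0.61.

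Both genes of that ratio were then set against other neuronal genes, a comparison chosen after the values of Trpa1 and Trpv1 had been seen. Of the 18 sensory neuron identity genes, 11 were lower relative to Trpv1 in every vincristine library than in any vehicle library, and 0 were higher in that way; over 16688 genes with reads in each library, 3.15% were lower and 3.94% higher. Trpv1 itself was at -1.05 against the vehicle mean in vincristine replicate 1, on the log2 scale. A gene at its vehicle level in that library has a raised ratio to Trpv1 there, so it cannot be lower without overlap. The share of all genes is therefore no background for neuronal genes, whose markers were also low in that library. Mrgprd, a receptor of non-peptidergic nociceptors, differed most, by -1.10 in the log2 ratio to Trpv1. The sodium channel genes Scn11a and Scn10a followed at -0.82 and -0.79, Prdm12 was at -0.65 and the neuropeptide gene Calca at -0.64. P2rx3, which encodes an ATP-gated channel of nociceptors, differed from Trpv1 by 0.045, and its groups overlapped. Relative to Trpa1, 0 of the 18 were lower and 8 were higher without overlap. Of all genes, 0.132% were lower and 45.8% higher in that way. Trpa1 was at -2.04 against the vehicle mean in vincristine replicate 1, on the log2 scale. A gene at its vehicle level has a raised ratio to Trpa1 there, so these shares are no background for neuronal genes either. The Trpa1 to Scn10a ratio was 0.115, 0.0959 and 0.0956 in vincristine libraries, against 0.118, 0.0889 and 0.0904 in vehicle libraries, and so overlapped. Against other genes it did not overlap and was lower, with log2 differences of -0.78 to P2rx3, -0.35 to Scn9a and -0.35 to Prph. The 18 ratios share the Trpv1 reads as their denominator and are not independent of one another.

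**Figure D2:**
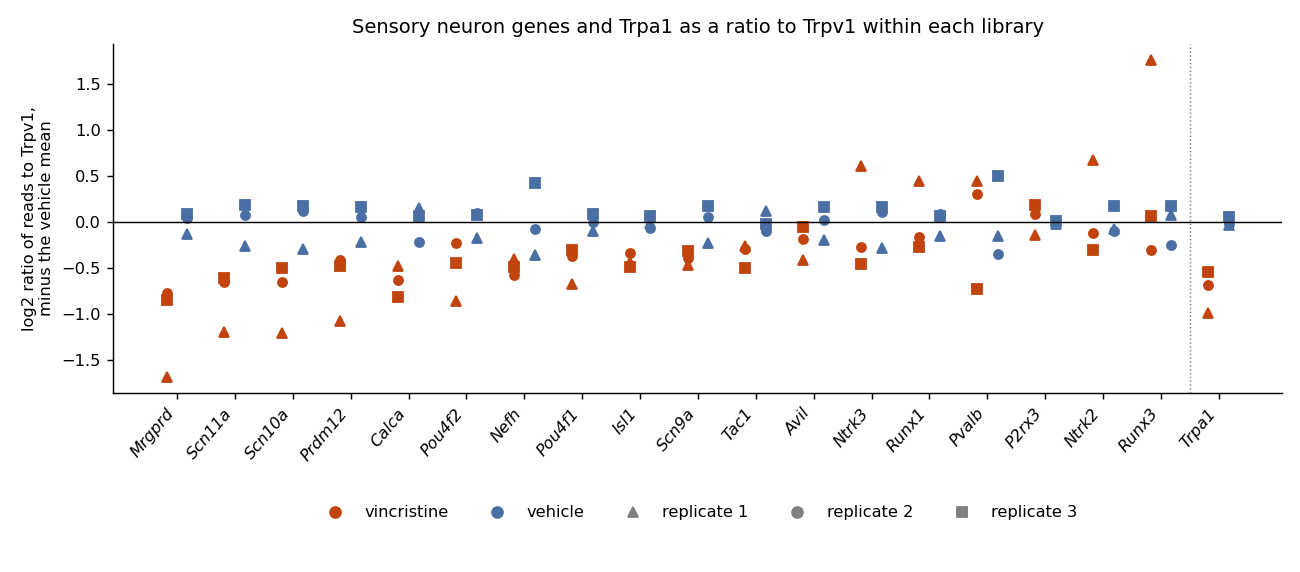
Log2 ratio of each gene's reads to Trpv1 reads within a library, minus the vehicle mean (vertical axis), for 18 sensory neuron identity genes ordered by their mean difference and, right of the dotted line, Trpa1; vincristine libraries are orange and stand left of the blue vehicle libraries. The orange points lie below all blue points for 11 of the 18 genes and for Trpa1.

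Trpv2 gave a like result, with 9 of the 18 identity genes lower relative to it and 0 higher, beside 4.39% and 5.02% of all genes. Of the other neuronal channels, Trpm8 had 4 lower and 1 higher (0.575% and 4.05% of all genes), and Piezo2 had 3 lower and 0 higher (0.575% and 10.3%). Relative to Trpm3 there were 2 lower (1.98%), relative to Trpm4 4 (4.4%) and relative to Trpv4 2 (4.14%), with 0 higher for each of these 3, where 17.5%, 10.9% and 4.64% of all genes were higher. Trpv2, Trpm8, Piezo2 and Trpm4 were themselves low in vincristine replicate 1 (-0.73, -1.57, -1.14 and -0.51 against the vehicle mean, log2 scale). Their shares of all genes, lower and higher, carry the limits given for Trpv1 and Trpa1. Trpm2 and Piezo1, which had positive fold changes, had 14 and 5 lower and 0 higher. For them 58.8% and 30.3% of all genes were lower and 2.21% and 2.56% higher.

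Trpm8, the cold receptor, had 10.99, 30.5 and 39.1 CPM in vincristine replicates 1, 2 and 3, against 24.9, 43.1 and 32.7 CPM in vehicle replicates 1, 2 and 3. The groups overlapped, and only vincristine replicate 1 fell outside the vehicle range. An antisense gene with at most 1 read in a library covers 8.20% of the exon bases of Trpm8. Its log2 fold change had the largest standard error of the 10 genes, -0.31 ± 0.43, and was 0.053 ± 0.22 without vincristine replicate 1 (edgeR adjusted p = 0.815 and 0.954). The within-library ratio of Trpm8 to Trpv1 was 0.257, 0.314 and 0.344 in vincristine libraries, against 0.304, 0.423 and 0.391 in vehicle libraries. These overlapped too, with a log2 difference of -0.29 (exact two-sided permutation p = 0.3, and 0.3 adjusted over the 3 ratios).

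Trpm3 had the smallest standard error of the 10 channels. It had 77.8, 78.4 and 70.9 CPM in vincristine libraries, against 76.6, 83.6 and 87.6 CPM in vehicle libraries. Vincristine replicate 1 lay inside the vehicle range. The log2 fold change of -0.13 ± 0.10 did not pass (edgeR adjusted p = 0.682), and it was 0.28 with scaling to pan-neuronal markers, which is -0.086 relative to the median gene of that fit. The gene is long, from 22139046 to 22995410 on chromosome 19, and hosts the microRNA gene Mir204 in an intron. Non-coding genes on the opposite strand, C330002G04Rik and Gm27151, share 1.44% and 1.13% of its exon bases.

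Trpm4, a calcium-activated channel that carries monovalent cations, had 16.2, 23.7 and 23.3 CPM in vincristine libraries, against 22.8, 24.8 and 21.5 CPM in vehicle libraries. Vincristine replicate 1 lay below the vehicle range and the other vincristine libraries inside it. Its log2 fold change was -0.12 ± 0.16, and 0.028 ± 0.10 without that library (edgeR adjusted p = 0.807 and 0.947).

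The touch channel gene Piezo2 had the most reads of the 10. It had 196, 355 and 416 CPM in vincristine replicates 1, 2 and 3, against 317, 540 and 472 CPM in vehicle replicates 1, 2 and 3. Vincristine replicates 2 and 3 lay within the vehicle range and replicate 1 below it. Piezo2 averaged 322 ± 114 CPM in vincristine and 443 ± 114 CPM in vehicle (SD, n = 3 each), and the log2 fold change was -0.46 ± 0.32 (edgeR adjusted p = 0.631). Without vincristine replicate 1 it was -0.20 ± 0.22 (edgeR adjusted p = 0.778). 

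Piezo1 pointed the other way. It had 53.0, 46.7 and 38.4 CPM in vincristine replicates 1, 2 and 3, against 34.7, 30.5 and 39.1 CPM in vehicle replicates 1, 2 and 3. Vincristine replicates 1 and 2 lay above all vehicle libraries, and replicate 3 inside their range. The log2 fold change was 0.40 ± 0.15 (edgeR unadjusted p = 0.0330, adjusted p = 0.383), and 0.29 ± 0.13 without vincristine replicate 1 (edgeR adjusted p = 0.420). Piezo1 spans chromosome 8 from 122481698 to 122551329. Ctu2 on the opposite strand shares 2441 of its exon bases, 24.6% of the total. Whether reads were counted by strand is a point not given in the sources used here, and Ctu2 itself had 140, 277 and 368 reads in vincristine libraries, against 255, 252 and 282 reads in vehicle libraries.

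The ratio of Piezo2 to Piezo1 reads was 3.69, 7.61 and 10.8 in vincristine libraries, against 9.14, 17.7 and 12.1 in vehicle libraries. The ranges overlapped. The mean log2 ratio was 2.75 ± 0.79 in vincristine and 3.64 ± 0.48 in vehicle (SD, n = 3 each), a difference of -0.89 (exact two-sided permutation p = 0.2, and 0.3 adjusted over the 3 ratios). Leaving out each library in turn gave -1.24 to -0.46.

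Trpm2, which encodes a channel opened by ADP-ribose under oxidative stress, was higher in each vincristine library. It had 49.0, 35.7 and 36.4 CPM in vincristine replicates 1, 2 and 3, against 27.1, 30.6 and 27.5 CPM in vehicle replicates 1, 2 and 3. The groups did not overlap, as was so with vincristine higher in 11.5% of all genes tested. Trpm2 averaged 40.4 ± 7.497 CPM in vincristine and 28.4 ± 1.94 CPM in vehicle (SD, n = 3 each), 1.42 times as much. The log2 fold change of 0.50 ± 0.15 had an unadjusted p of 0.0109 and did not pass after adjustment (edgeR adjusted p = 0.266; DESeq2 adjusted p = 0.147). Without vincristine replicate 1 it was 0.34 ± 0.095 (edgeR adjusted p = 0.154). The gene spans chromosome 10 from 77907722 to 77970563.

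Macrophage, neutrophil and erythroid markers were highest in vincristine replicate 1, where Trpm2 and Piezo1 were highest, and B lineage markers were not. The 14 macrophage markers summed to 2280, 1184 and 1258 CPM in vincristine replicates 1, 2 and 3, against 901, 685 and 788 CPM in vehicle replicates 1, 2 and 3, and 14 of 14 had a positive log2 fold change. All 13 neutrophil markers and all 11 erythroid markers were also positive, with median log2 fold changes of 1.91 and 1.76. The erythroid sum was 11564, 4590 and 5219 CPM in vincristine libraries, against 3890, 3139 and 2439 CPM in vehicle libraries. In each of these 3 lists, as in Trpm2 and Piezo1, vincristine replicate 1 was highest of all 6 libraries, and edgeR called 0 members at an adjusted p under 0.05 (12, 12 and 11 higher at an unadjusted p under 0.05; DESeq2 called 7, 10 and 8). Over all genes tested edgeR called 0.359% and had 8.1% higher at that unadjusted p, and DESeq2 called 3.41%. Without vincristine replicate 1 edgeR called 1, 8 and 6 of the markers in these lists, against 2.05% of all genes. No marker in the 3 lists was at 0 in any library. The 10 B lineage markers went the other way, with 10 of 10 negative and 8 called lower by edgeR (9 by DESeq2), and a median log2 fold change of -3.34. They summed to 95.8, 44.7 and 53.1 CPM in vincristine libraries, against 138, 116 and 182 CPM in vehicle libraries. The 12 endothelial markers summed to 685, 492 and 416 CPM in vincristine libraries, against 548, 467 and 507 CPM in vehicle libraries, so they overlapped. The 10 mural and smooth muscle markers summed to 756, 737 and 550 CPM in vincristine libraries, against 719, 664 and 626 CPM in vehicle libraries. These sums and that of the spinal cord glia markers were also highest in vincristine replicate 1, so this trait was not particular to blood cell markers. Trpv4, at 6.27 CPM, was highest there too. In vincristine replicate 3 the macrophage, neutrophil and erythroid sums exceeded every vehicle library. Piezo1 and the endothelial and mural sums did not exceed every vehicle library in that replicate. The part of these cell types in the Trpm2 and Piezo1 values was not tested.

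**Figure D3:**
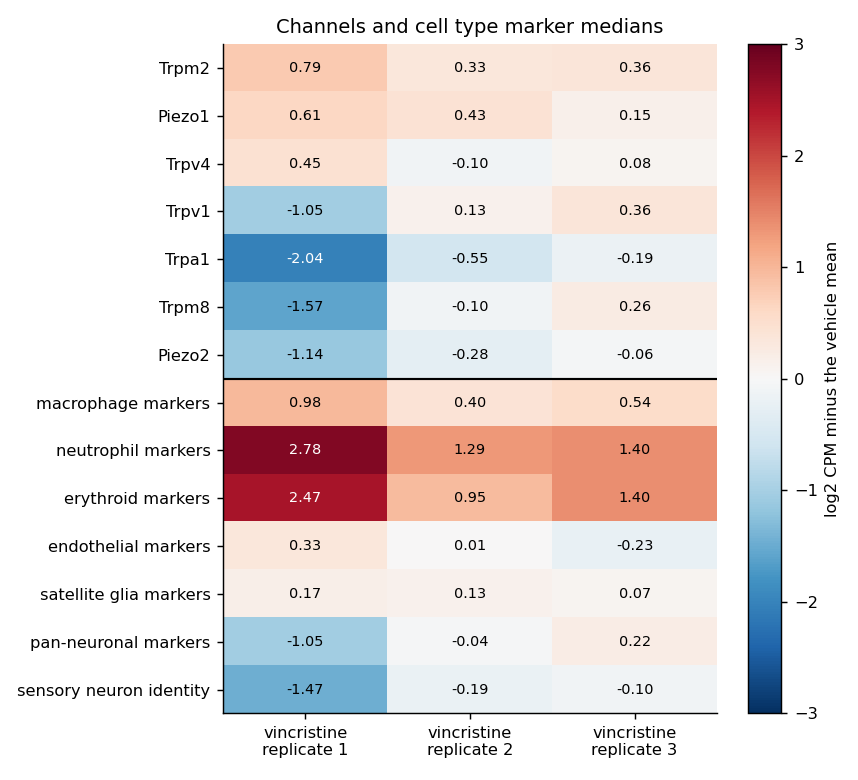
Log2 CPM minus the vehicle mean in each vincristine library (columns), for 7 channel genes above the line and for the median of 7 marker lists below it; red is higher and blue lower than vehicle. Vincristine replicate 1 holds both the lowest values of the neuronal genes shown (Trpa1 at -2.04, identity genes at -1.47) and the highest blood cell values (neutrophil markers at 2.78). Trpv2, Trpm3 and Trpm4 are not shown.

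Trpv4, an osmotically sensitive channel, was the lowest of the 10 by reads, with 77 to 126 in a library. It had 6.27, 4.28 and 4.86 CPM in vincristine libraries, against 4.76, 5.31 and 3.85 CPM in vehicle libraries. The groups overlapped, and the log2 fold change of 0.14 ± 0.22 became -0.018 ± 0.20 without vincristine replicate 1 (edgeR adjusted p = 0.843 and 0.985).

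Vincristine replicate 1 was the lowest of all 6 libraries for 6 of the 10 channels. Against the vehicle mean, the members' median was -0.62 in that library on the log2 scale, beside -0.042 and 0.11 in the other vincristine libraries. All genes tested had medians of -0.00065, 0.018 and 0.00038. The pan-neuronal markers had medians of -1.05, -0.039 and 0.22 and the identity genes of -1.47, -0.19 and -0.10 in the same 3 libraries. Trpv1 (-1.05), Piezo2 (-1.14), Trpm8 (-1.57) and Trpa1 (-2.04) thus lay at or beyond the pan-neuronal median in vincristine replicate 1. Trpv2 (-0.73), Trpm4 (-0.51) and Trpm3 (-0.084) were below the vehicle mean there but did not reach that median. When libraries were scaled to the pan-neuronal markers instead, the median of all genes moved to 0.37. Relative to it Trpa1 was at -0.97, Piezo2 at -0.57, Trpm8 at -0.52, Piezo1 at 0.48 and Trpm2 at 0.61, and 0 members were called by edgeR (0 at an unadjusted p under 0.05, against 5.57% of all genes). The values of Trpv1, Trpv2, Trpm3 and Trpm4 were positive in that fit and negative relative to its median gene.

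**Figure D4:**
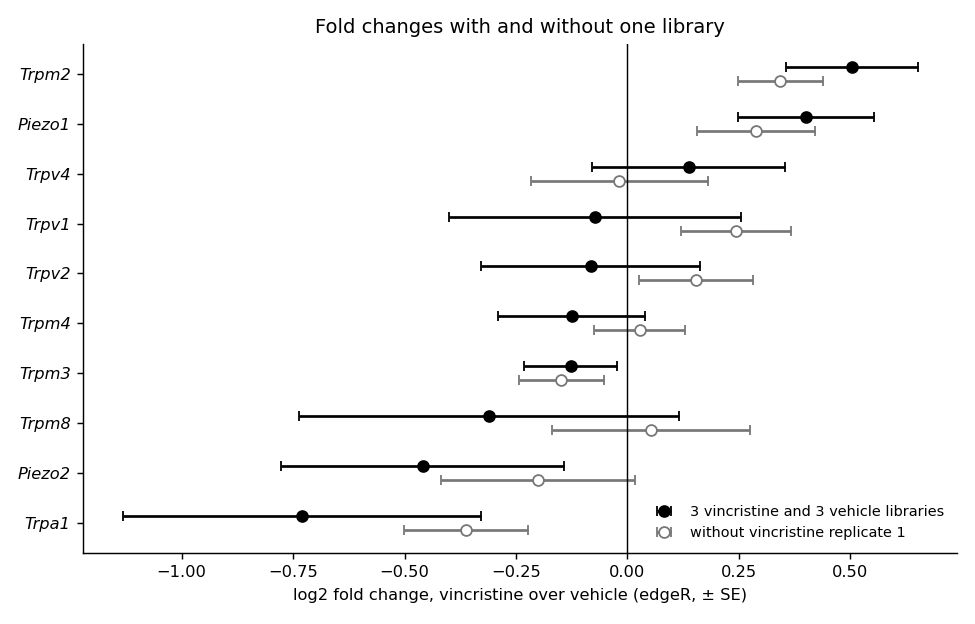
Log2 fold change of vincristine over vehicle (horizontal axis, edgeR, ± SE) for the 10 channel genes with all 6 libraries (filled) and without vincristine replicate 1 (open). Trpm2 and Piezo1 stay right of 0 and Trpa1, Piezo2 and Trpm3 left of it, while the other 5 genes change sign.

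Levels of different genes were compared per kilobase of exon. In vehicle ganglia Piezo2 stood at 25.8 ± 6.65 and Trpv1 at 24.2 ± 3.03 CPM per kilobase (SD, n = 3), and their ranges overlapped. Trpa1 (14.02 ± 1.63) and Trpv2 (13.2 ± 1.34) formed the next pair and also overlapped, below Trpv1. Trpm8 followed alone at 7.09 ± 1.94. Piezo1 (3.50 ± 0.430) overlapped with Trpm3 (3.38 ± 0.228), and Trpm2 (2.28 ± 0.156) with Trpm4 (2.13 ± 0.149). Trpv4 was lowest at 1.14 ± 0.182 CPM per kilobase, apart from its neighbour. This order and its pairs hold for merged exons, and much of the order depends on the length used. Per kilobase of the longest transcript Trpm3 was at 6.71 and Piezo1 at 4.23 CPM, and per kilobase of the longest coding sequence at 15.9 and 4.55 CPM. Trpv2 stood above Trpa1 with both of these lengths, at 16.1 against 14.02 CPM and at 26.1 against 17.7 CPM. Per kilobase of the longest transcript Trpm4 was at 5.34 and Trpm2 at 3.91 CPM.

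In vincristine ganglia the order began with Trpv1 at 23.0 ± 10.1 and Piezo2 at 18.8 ± 6.64 CPM per kilobase (SD, n = 3), followed by Trpv2 at 12.4 ± 4.21 and Trpa1 at 8.39 ± 4.54. The only neighbours in this order whose ranges did not overlap were Trpm3 (3.10 ± 0.171) and Trpm4 (1.94 ± 0.390), with vincristine replicate 1 the lowest library for each of the first 5 genes. Trpa1 made up 6.51%, 10.6% and 11.7% of the summed level per kilobase of the 10 genes in vincristine libraries, against 15.3%, 14.3% and 14.02% in vehicle libraries, again without overlap. The share of Piezo2 was 21.9%, 23.0% and 23.1% in vincristine libraries, against 22.5%, 28.5% and 28.2% in vehicle libraries, and the share of Trpv1 was 22.3%, 29.3% and 29.4% in vincristine libraries, against 27.0%, 25.1% and 23.3% in vehicle libraries.

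**Figure D5:**
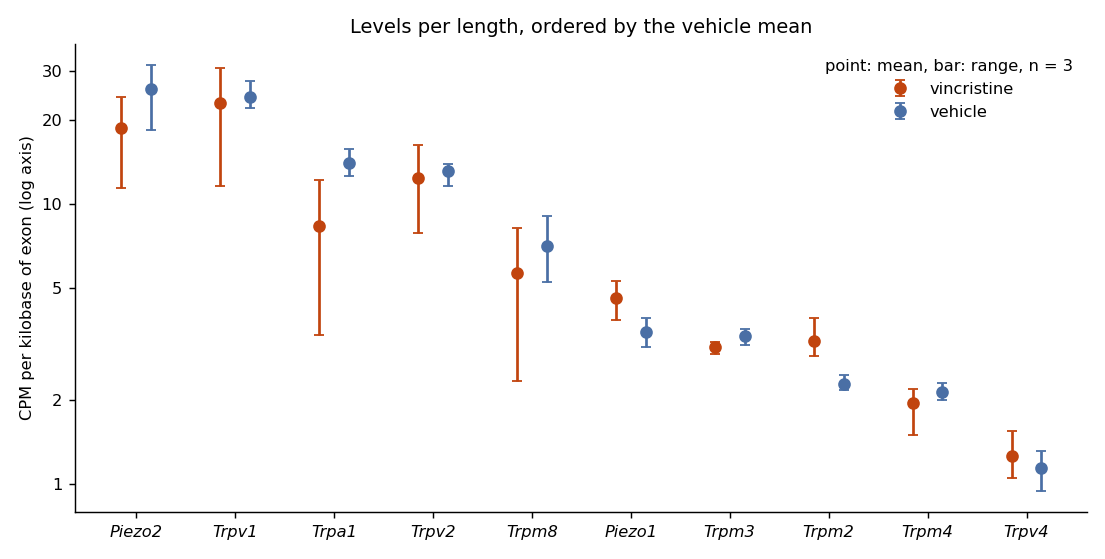
TMM-scaled CPM per kilobase of exon (log axis) for the 10 channel genes in the order of their vehicle means; points are means and bars the range of 3 libraries, with vincristine (orange) left of vehicle (blue). Vehicle levels run from 25.8 for Piezo2 to 1.14 for Trpv4, and the vincristine bars of Trpv1, Piezo2, Trpv2, Trpa1 and Trpm8 reach lowest in vincristine replicate 1.

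Among the other 20 TRP superfamily genes, 16 were tested and edgeR called 0 (with 1 higher and 2 lower before adjustment) and DESeq2 1, with a median log2 fold change of -0.12. Of all genes tested, 8.1% were higher and 3.27% lower in edgeR before adjustment, and DESeq2 called 3.41%. Trpc6, which encodes a channel gated by diacylglycerol, had 13.7, 23.1 and 23.5 CPM in vincristine libraries, against 38.4, 41.5 and 30.3 CPM in vehicle libraries. Each vincristine library lay below each vehicle one, with a log2 fold change of -0.86 ± 0.23 that DESeq2 called and edgeR did not (adjusted p = 0.0230 and 0.221). Trpc4, of the same subfamily, was at -0.67 ± 0.22 (edgeR adjusted p = 0.318). Pkd2l1, a polycystin channel gene, was at 1.92 ± 0.56 (edgeR adjusted p = 0.263), but on only 23, 17 and 14 reads in vincristine libraries and 3, 6 and 6 reads in vehicle libraries. Pkd2 at 10.4 and the channel kinase gene Trpm7 at 9.46 CPM per kilobase were among the 3 highest of the list in vehicle ganglia. Trpv5, Trpv6, Trpm1 and Mcoln3 had at most 6 reads in any library and were not tested.

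Of 20 other mechanosensitive channels and genes linked to Piezo, 17 were tested, 0 were called by edgeR or DESeq2 (in edgeR, 1 was higher and 1 lower with p under 0.05 before adjustment) and the median log2 fold change was -0.13. The shares of all genes at that unadjusted p were 8.1% higher and 3.27% lower. Stom, a membrane protein gene that is abundant in red cells, was at 142, 86.4 and 102 CPM in vincristine libraries, against 78.7, 57.6 and 65.5 CPM in vehicle libraries (log2 fold change 0.71 ± 0.21, edgeR adjusted p = 0.266). Its highest library was again vincristine replicate 1. Lhfpl5 (-0.66 ± 0.27), known from the hair cell transduction complex, the potassium channel gene Kcnk4 (-0.67 ± 0.38) and the phosphatase gene Mtmr2 (-0.20 ± 0.098) had negative log2 fold changes that did not pass (edgeR adjusted p = 0.416, 0.557 and 0.494). Without vincristine replicate 1 Lhfpl5 was at -0.41 and Kcnk4 at -0.36, and the median of the list at -0.019. Per kilobase the calcium pump gene Atp2a2 at 42.5, Usp9x at 37.5 and Stom at 23.8 CPM were highest in vehicle ganglia.

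Of 34 genes of TRP sensitisation and regulation, 33 were tested and 0 called by edgeR or DESeq2 (in edgeR, 1 was higher and 1 lower with p under 0.05 before adjustment), with a median log2 fold change of -0.13. The shares of all genes at that unadjusted p were 8.1% higher and 3.27% lower. Plcb3, a phospholipase downstream of inflammatory receptors, was at -0.62 ± 0.26 and the kinase gene Prkca at -0.47 ± 0.27 (edgeR adjusted p = 0.436 and 0.564). Without vincristine replicate 1 Plcb3 was at -0.37 and Prkca at -0.22, and the median of the list at -0.0025. The stress kinase gene Mapk14 was at 86.3, 79.9 and 85.4 CPM in vincristine libraries, against 66.9, 65.6 and 73.5 CPM in vehicle libraries, a log2 fold change of 0.29 ± 0.099 (edgeR adjusted p = 0.343). S100a10 at 309 and Gabarapl1 at 241 CPM per kilobase were among the 3 highest of the list in vehicle ganglia.

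Genes with the most similar profile were looked up for the 3 members with the largest fold change in either direction, as the root mean square difference of log2 CPM minus the vehicle mean over 6 libraries and 10135 genes. Among the 2 nearest to Trpa1 was A3galt2, which encodes a galactosyltransferase, at a difference of 0.10. Among the 2 nearest to Trpm2 was Mpp1, a red cell membrane scaffold gene, at 0.052. Nearest to Piezo2 were Spock1, a proteoglycan gene, at 0.055 and Fam57b at 0.057. These are the smallest distances among many genes and carry no test.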

How the data were processed

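RNA of 6 pooled samples of dorsal root ganglia, 3 vincristine and 3 vehicle, was made into stranded total RNA libraries and read as single-end reads of 75 nucleotides, per the labels' protocols. The authors deposited 1 table per sample with unnormalised read counts for each symbol. The submitters' processing notes name STAR, SAMtools, HTSeq and mm10 (GRCm38), with versions, annotation and strand setting not given in the sources used here. HTSeq's summary lines (14.8% to 24.8% of alignments with no counted feature, 31.1% to 40.5% not unique and 0.253% to 0.331% ambiguous) were left out of library sizes. Sample titles gave the replicate numbers. A vehicle table has a 4 in its name where the title has 3, and vincristine tables name 10 µg where the labels state a cumulative 40 µg. Each replicate is a pool of 4 mice, so p-values measure the spread between pools.

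The test was that of edgeR 4.0.16 under R 4.3.3, with filterByExpr (minimum count 10), TMM factors, robust estimateDisp and glmQLFit, and glmQLFTest, two-sided, with treatment as the sole term and 4 residual degrees of freedom. P-values were adjusted by Benjamini-Hochberg over 16706 genes with a threshold of 0.05, and each SE was taken as the absolute log2 fold change over the root of F. CPM use TMM-scaled library sizes; levels per kilobase use merged exons of GENCODE M21 on GRCm38, which may not be the annotation used for counting. Ratios were tested by exact permutation. The fit was tested on simulated data. Of 50 genes changed 1.5 times edgeR called 4, and of 50 changed 2 times it called 24. Of 50 changed 4 times and 50 changed 8 times it called 50 and 49, with 9 false calls. Changes of 2 times or less were thus often missed. Alternatives were DESeq2 1.42.0, limma-voom (limma 3.58.1), other scalings, filters and dispersions, thinned counts, a replicate block and leaving out each library. Libraries of a group differed far beyond counting noise (chi-square per degree of freedom 12.5 to 90.7), so none was a copy.

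The 10 members and all gene lists were chosen with earlier results of these data known. Of 238 entries, 2 needed an older name and 1 was missing. Genes outside the 10 were named by rule: any called, the 4 with the smallest p and the 3 with the highest vehicle level per kilobase of each pathway list; some genes that this rule selects are not reported here. On a principal component with 56.4% of the variance, vincristine replicate 1 lay away from all other libraries.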

Additional observations from a re-analysis of the deposited data

How the results depend on the processing

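None of the 10 channel genes was called under any of the 20 alternatives fitted over all genes, nor at an adjusted p under 0.1. Their smallest adjusted p was 0.107 (Trpm2, limma-voom with sample quality weights). The number of all genes called was 60 with edgeR as reported, 569 by DESeq2 and 638 by DESeq2 without vincristine replicate 1. It was 346, 6 and 18 by edgeR without vincristine replicates 1, 2 and 3, and 0 by edgeR without each of the 3 vehicle replicates. The members' median log2 fold change ran from -0.27 to 0.16. Trpa1, Piezo2, Trpm2 and Piezo1 kept their direction under all 20. With pan-neuronal scaling, which set the median of all genes at 0.37, the sign changed for Trpv1 (0.11), Trpv2 (0.16), Trpm3 (0.28) and Trpm4 (0.17), all below that median. With sample quality weights it changed for Trpv1 (0.095), Trpv2 (0.013), Trpm4 (0.0022) and Trpv4 (-0.037). Leaving out single libraries gave -0.36 to 0.24 for Trpv1, -0.33 to 0.15 for Trpv2, -0.21 to 0.028 for Trpm4, -0.70 to 0.053 for Trpm8 and -0.018 to 0.26 for Trpv4; the sign changed without vincristine replicate 1 for all 5, and for Trpv1 also without vehicle replicate 2 (0.048). DESeq2 without vincristine replicate 1, added after the data were seen, gave 0.23 for Trpv1, 0.15 for Trpv2, -0.027 for Trpv4, 0.019 for Trpm4 and 0.042 for Trpm8. Pan-neuronal scaling without that library, also added, gave 0.14 for Trpv1, 0.047 for Trpv2 and -0.13 for Trpv4. The median of all genes in that fit was -0.11, and relative to it these 3 were at 0.25, 0.16 and -0.024. With either the length of the longest transcript or that of the longest coding sequence, 4 of the 10 channels kept their rank in the vehicle order; Piezo2, Trpv1 and Trpv4 were among them; leaving out libraries kept 8 to 10. The replicate numbers were not treated as pairs: deviations of same-numbered libraries correlated at 0.43, 0.25 and -0.094. A fit with the replicate block called 261 genes and 0 members (4 at an unadjusted p under 0.05, against 15.4% of all genes), with Trpa1 at -0.89, Trpm2 at 0.49 and a smallest adjusted p of 0.190. Outside the members, quality weights called Trpc6 (adjusted p = 0.0480), the block called Stom (0.0460), and DESeq2 without vincristine replicate 1 called Trpc6 (0.00566). Trpv4 had the fewest reads of the 10, 77 to 126 in a library.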
